A study of Glycine soja with 14 samples.

Results

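The transcript levels compared here are those of wild soybean roots held for 24 h in NaHCO3 and those of roots held in it for 12 h, that is, the last interval of a time course of alkaline stress. The 4 arrays labelled NaHCO3 24 h and NaHCO3 12 h, 2 of each, were taken out of 14 arrays in all, and only soybean probe sets (37593 probe sets whose identifiers start with Gma) were used, of which 28566 were tested. The plants were Glycine soja line G07256, with an age of 21 days in the sample labels, and both groups stood in a dilute nutrient solution to which NaHCO3 had been added at 50 mmol/L (pH 8.5). Each array was made from the last 3 cm of the roots of a pool of 3 plants, and the other 10 arrays were 2 each from roots without stress (0 h) and after 0.5, 1, 3 and 6 h. No unstressed roots from the hours of the 12 h or the 24 h harvest were analysed here. Neither the labels nor the paper give the clock hours of harvest. With a common start of treatment, the 24 h roots were taken 12 h later in the daily cycle than the 12 h roots. They were then taken at the same hour as the 0 h roots. Duration of stress and time of day therefore cannot be told apart. The paper gives a longer daily light period and an earlier age of the plants than the labels do. The chip was the Affymetrix Soybean Genome Array, designed on cultivated soybean (Glycine max), so a sequence difference between the species can lower a signal on every array alike.

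Plants keep time with a clock of genes that repress each other in turn, in which LHY and its relatives peak near dawn and LUX, PRR and GIGANTEA genes follow later in the day. Genes of the light-harvesting apparatus, aquaporins, cell wall enzymes and many enzymes of carbon metabolism are known to follow both this clock and the light. In alkaline soil bicarbonate holds up the pH at the root surface and lowers the solubility of iron and phosphate, and roots answer by proton pumping, organic acid metabolism and changed growth. A root tip in bulk holds many cell types, and fewer cells of a type cannot be told apart from less RNA per cell.

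The deposited intensities were on a linear scale and had been computed by the authors with dChip from perfect-match probes. The authors fitted 1 array of each time point to the other, so the spread within a time point may be smaller than it was in the roots. The replicates correlated at 0.963 at 24 h and at 0.931 at 12 h on the log2 scale over the tested probe sets, and 12 h was the lowest of the 7 time points. The second 12 h array also had the lowest hybridization controls of all arrays, at a mean log2 intensity of 9.09 (9.26 to 10.51 on the others). An 18S rRNA probe set read 8.47 and 9.57 on the 24 h arrays and 9.30 and 6.57 on the 12 h arrays. The medians of the tested probe sets were 6.31 and 6.30 at 24 h and 6.34 and 6.38 at 12 h. Results that turn on 1 of the 4 arrays are given below with their values without it.

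By limma, 3446 probe sets were higher at 24 h than at 12 h (12.1% of those tested) and 5654 were lower (19.8%), counting those with p under 0.05 and, after Benjamini-Hochberg adjustment, under 0.15. The rises were fewer and larger than the falls. The median difference, 24 h minus 12 h on the log2 scale, was 0.94 among the probe sets called higher and -0.77 among those called lower, and -0.10 over all that were tested. Differences of more than 1 on the log2 scale were about as frequent in both directions, with 1567 probe sets higher (5.49%) and 1614 lower (5.65%). Beyond 2 there were 391 higher and 159 lower, and beyond 3 there were 137 higher and 17 lower. All 4 arrays lay over the background level for 2991 of the probe sets called higher and 4795 of those called lower. The background level was an intensity of 15.1, the 95th percentile of the probe sets for 2 soybean pathogens on the same chip.

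**Figure D1:**
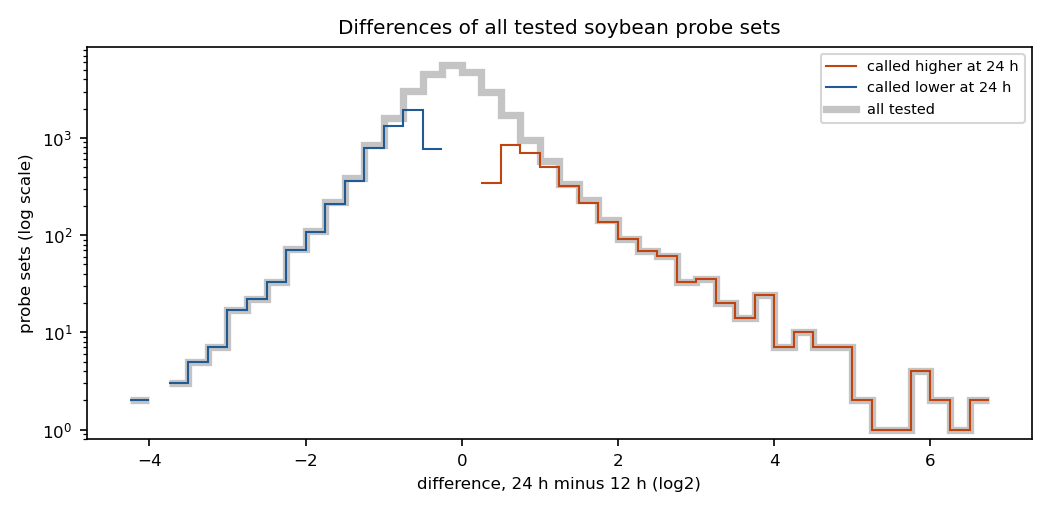
Number of soybean probe sets (log scale) against their difference on the log2 scale, 24 h minus 12 h, for probe sets called higher (red), called lower (blue) and all tested (grey). The right tail reaches 6.70 and the left tail -4.08, and 137 probe sets called higher but 17 called lower lie beyond 3.

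Of the 4 arrays, the second 24 h array moved the counts most. Without it 1815 probe sets were called higher and 2880 lower, whereas leaving out any 1 of the other 3 arrays left 3161 to 3314 higher and 4546 to 4821 lower. When each array was centred on its median, 4023 were higher and 4809 lower, so the share of falls among the calls was 54.4% in place of 62.1%. No called probe set turned its direction under any of these settings.

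Relatives of LHY, known to peak near dawn, were higher at 24 h, whereas LUXC, PRR7 and a Gigantea-like gene, known to peak later in the day, were lower. Of 12 tested probe sets whose symbols belong to the clock and to light responses, 8 rose and 1 fell. The median was 1.31 in this list and -0.10 over all tested probe sets, of which 12.1% rose and 19.8% fell. LHY, the dawn repressor of the clock in Arabidopsis, had intensities of 712 and 839 at 24 h, against 50.2 and 48.8 at 12 h, a difference of 3.97 on the log2 scale (SE 0.18, adjusted p = 3.3e-06). A second LHY probe set, with 299 and 311 at 24 h and 25.4 and 18.9 at 12 h, rose by 3.80. Both 24 h arrays lay more than 10-fold above both 12 h arrays in each case. LCL3, a relative of LHY, had 61.5 and 59.8 at 24 h and was under background on both 12 h arrays (5.22 and 10.8), so it was at least 3.79-fold higher with its 12 h values raised to 16, just over background. LUXC, related to a member of the evening complex that represses dawn targets in Arabidopsis, went the other way. It read 37.4 and 36.3 at 24 h, against 237 and 225 at 12 h (-2.65, SE 0.27, adjusted p = 0.000257).

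Of 7 clock and light probe sets known only by description, 2 rose and 5 fell. The study described probe sets that changed on these same arrays, so this count is not independent evidence of a direction. PRR7, a pseudo-response regulator that represses LHY in Arabidopsis, had 25.9 and 37.1 at 24 h and 150 and 62.6 at 12 h on 1 probe set (-1.64) and 96.2 and 116 at 24 h and 238 and 179 at 12 h on another (-0.96). The groups did not overlap on either, although the first value was -1.01 without the first 12 h array. A Gigantea-like probe set, for a protein of the evening phase, fell by 1.02 (112 and 110 at 24 h, 287 and 175 at 12 h) and by 0.66 without the first 12 h array. A receiver and CCT domain protein similar to one of Medicago was at 35.6 and 25.4 at 24 h and at 135 and 109 at 12 h (-2.01), while a second protein with this description was at 166 and 163 at 24 h and at 15.6 and 30.9 at 12 h (2.90). The pair thus moved in opposite directions. COL10, a CONSTANS-like zinc finger protein, had 1380 and 1470 at 24 h, against 294 and 306 at 12 h (2.25, SE 0.20, adjusted p = 0.000106). A different probe set described as CONSTANS-like 10 fell by 1.06 (31.8 and 40.2 at 24 h, 80.3 and 69.2 at 12 h). COP10, part of a complex that represses light responses in Arabidopsis, rose by 1.50, with 228 and 234 at 24 h and 81.7 and 81.2 at 12 h.

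Most genes of photosynthesis were higher at 24 h, whereas 12.1% of all tested probe sets rose and 19.8% fell. Of 21 tested probe sets with such symbols 15 rose and 1 fell, with a median of 1.09, and 9 rose without the second 24 h array. CAB3, a chlorophyll a/b-binding protein of the light-harvesting antenna, had 1820 and 2180 at 24 h and 14.8 and 25.3 at 12 h (6.69, SE 0.33, adjusted p = 5.48e-06). Another CAB3 probe set had 4020 and 4390 at 24 h, against 101 and 57.9 at 12 h, and differed by 5.78. These probe sets can bind transcripts of several near-identical CAB genes, and a further one with the same symbol was not called (0.37). Chloroplast ferredoxin I, an electron carrier after photosystem I, was at 565 and 692 at 24 h and under background on both 12 h arrays (6.47 and 13.4), at least 39.1-fold higher at 24 h (adjusted p = 7.7e-05). Its 0 h arrays averaged 122.

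The rise reached carbon fixation, chlorophyll synthesis and protection from light. RCA14 and RCAALPHA, both for the activase of the carbon-fixing enzyme Rubisco, rose by 4.76 and 4.37 but come from neighbouring sequences of 1 cluster on the chip and are not independent. RCA14 read 634 and 703 at 24 h and 11.2 and 54.4 at 12 h. The photosystem II 22 kDa protein, which drains excess light energy as heat, read 1240 and 1130 at 24 h and 36.2 and 125 at 12 h (4.14, SE 0.55, adjusted p = 0.00124). On both probe sets the 12 h arrays lay far below the 24 h arrays and differed more between themselves. CHLH, a subunit of the magnesium chelatase of chlorophyll synthesis, was at 625 and 688 at 24 h and at 36.2 and 79.8 at 12 h (3.61). ELIP, an early light-induced protein of the thylakoid, was at 6090 and 5690 at 24 h and at 499 and 1210 at 12 h (2.92, SE 0.36, adjusted p = 0.000874). The probe sets of PSAD, a photosystem I subunit, disagreed. Of the 3 named here, 1 was at 155 and 179 at 24 h and at 83.2 and 79 at 12 h (1.04), and was not called without the second 24 h array (0.93, adjusted p = 0.169). Another rose by 1.09 (751 and 968 at 24 h, 239 and 673 at 12 h), but by 0.34 without the first 12 h array and by 1.83 without the second, and was called in the second case only. It was not called without either 24 h array (1.27 and 0.90). The third was at 648 and 572 at 24 h and at 759 and 835 at 12 h, and its fall of 0.39 (adjusted p = 0.12) was no longer called after quantile normalization or centring, nor without the second array of 24 h (-0.30) or of 12 h (-0.32).

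These genes are also the markers of green tissue, and their level was not near zero in the unstressed root tips. Summed over the 21 probe sets, the intensity was 12900 and 12200 on the 0 h arrays, 2660 and 4000 on those of 12 h, and 19200 and 20500 on those of 24 h. The share of green or light-exposed tissue in the pools was not tested. Among markers of other tissues, of 6 seed storage probe sets 1 rose and 3 fell (0 to 3 each way when 1 of the 4 arrays was left out), and the 2 isoflavone synthases, root enzymes, summed to 2340 and 3450 at 24 h and to 4610 and 3630 at 12 h. Of the nodule markers, 3 nodulin probe sets had a median difference of -1.14 without a call, with sums of 1350 and 2720 at 24 h and of 1950 and 1880 at 12 h. Of 6 nodulins known by description 4 fell (median -1.49), as did 19.8% of all tested probe sets. The study described probe sets that changed on these same arrays, so the count of 4 is not independent evidence of a direction.

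**Figure D2:**
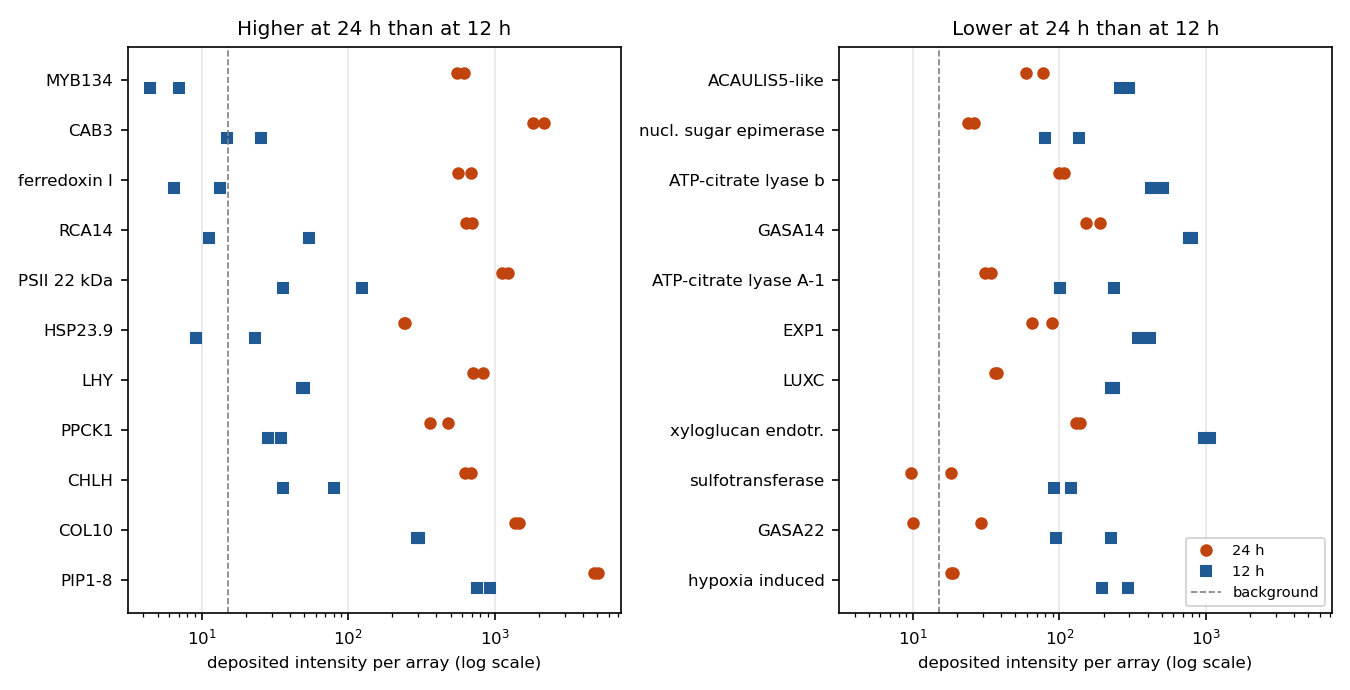
Deposited intensity (log scale) of 22 probe sets on the 24 h arrays (red circles) and the 12 h arrays (blue squares), with 11 that rose on the left and 11 that fell on the right, and the background level of 15.1 as a dashed line. In no row do the 24 h and the 12 h arrays overlap, which was a condition for choosing many of the rows. Several of the probe sets that rose sit at or under background at 12 h.

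MYB proteins are a large family of DNA-binding regulators. They rose more often than all tested probe sets (12.1%) and fell at near the same share (19.8%). Of 72 tested MYB probe sets 28 rose and 12 fell, with a median of 0.46, and the falls numbered 6 without the second 12 h array. MYB134 had intensities of 618 and 551 at 24 h, whereas its 12 h arrays, at 4.46 and 7.02, were under background. The fitted difference was 6.70 (SE 0.20, adjusted p = 2.79e-07), and with the 12 h values raised to 16 the gene was at least 36.5-fold higher, below the 99.1-fold of the first CAB3 probe set on the same scale. MYB114 had 93.5 and 99.2 at 24 h and was also under background on both 12 h arrays (3.38 and 4.58), which gave a rise of at least 6.02-fold. MYB118 rose by 3.80 (172 and 223 at 24 h, 11.2 and 17.5 at 12 h) and MYB186 by 3.65 (137 and 148 at 24 h, 19.9 and 6.48 at 12 h). MYB29 fell: its 24 h arrays were under background, at 13.2 and 10.6, against 39.6 and 40.8 at 12 h, so that it was at least 2.51-fold lower at 24 h. MYB92 (41.8 and 62.9 at 24 h, 186 and 144 at 12 h) and MYB179 (15.4 and 21.4 at 24 h, 54.2 and 58 at 12 h) fell by 1.68 and 1.62.

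The other families of regulators were nearer to the shares of all tested probe sets (12.1% rose, 19.8% fell) or turned on single arrays. Of 28 NAC probe sets, for plant factors of development and stress, 9 rose and the other 19 were not called. Their median was 0.58, but 1.1 without the first 24 h array and 0.04 without the second. NAC19 rose by 1.53 (109 and 193 at 24 h, 52.4 and 47.9 at 12 h). NAC1 rose by 1.27 (383 and 677 at 24 h, 215 and 206 at 12 h) and was not called without the second 24 h array (0.86, adjusted p = 0.161). Of 90 WRKY probe sets, for factors of defence and stress, 12 rose and 9 fell with a median of -0.01, and leaving out 1 of the 4 arrays gave 3 to 17 rises. Of 83 bZIP probe sets 15 rose and 13 fell, and 5 fell without the second 24 h array. The largest rises outside these families included a salt-tolerance protein, a B-box zinc finger protein of light signalling in Arabidopsis, at 210 and 317 at 24 h and at 7.93 and 33.7 at 12 h (3.98).

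**Figure D3:**
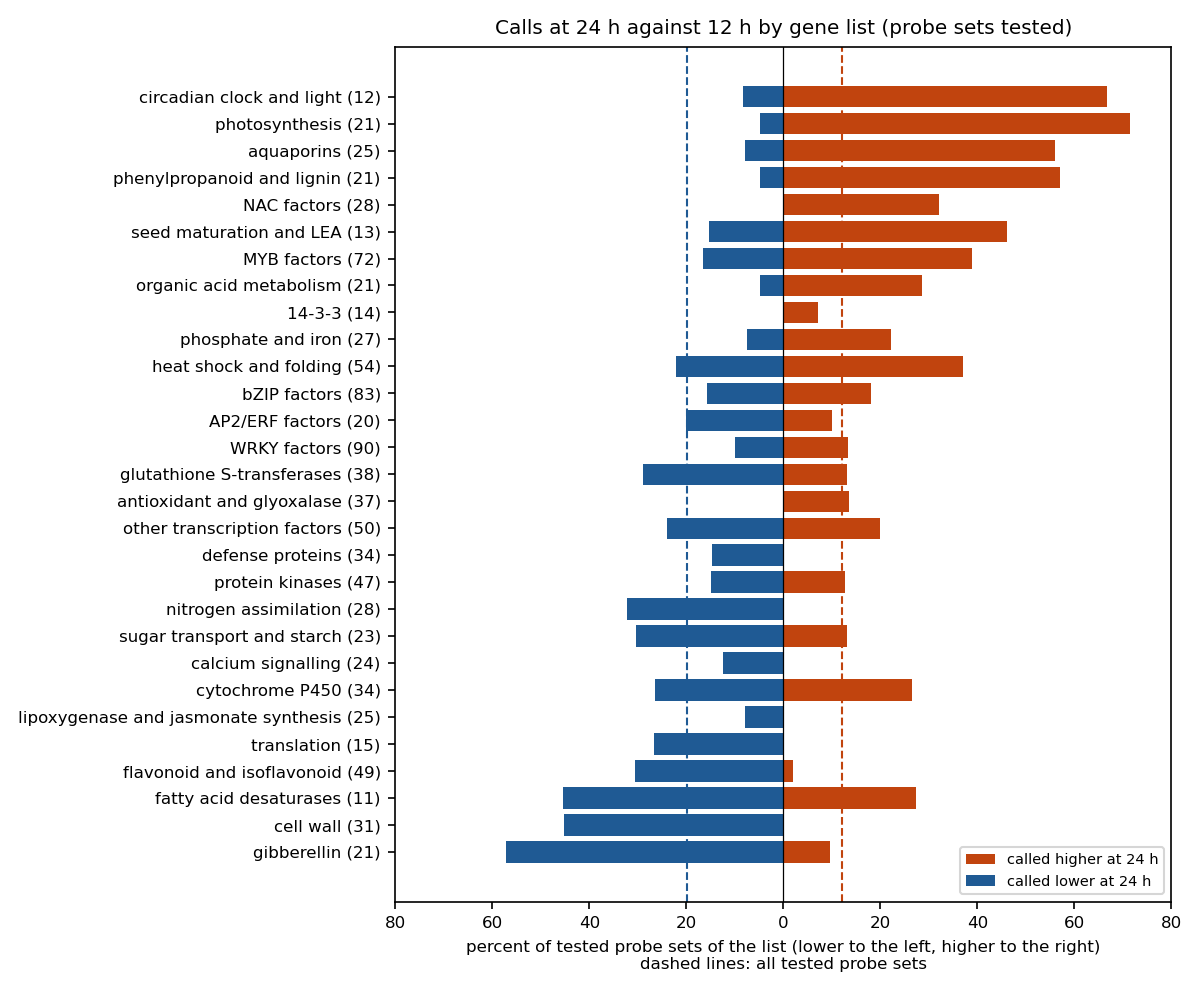
Percentage of the tested probe sets of each gene list called higher (red, to the right) or lower (blue, to the left) at 24 h against 12 h, with the number tested in brackets, lists ordered by median difference and the shares over all tested probe sets (12.1% higher, 19.8% lower) as dashed lines. The clock, photosynthesis, aquaporin and lignin lists reach furthest past the right line and the gibberellin, cell wall and desaturase lists furthest past the left one. Other lists also pass a line, among them seed maturation, MYB, heat shock and NAC on the right. On the left these include nitrogen assimilation, flavonoid, sugar and glutathione S-transferase lists. Some, such as the desaturases, pass both lines.

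Aquaporins, the water channels of plant membranes, were more often higher at 24 h than all tested probe sets, of which 12.1% rose and 19.8% fell. Of 25 tested probe sets 14 rose and 2 fell, with a median of 0.79, and 1 fell when any 1 of the 4 arrays was left out. PIP1-8, a plasma membrane aquaporin, had 5100 and 4780 at 24 h, against 756 and 936 at 12 h (2.55, SE 0.16, adjusted p = 1.89e-05). PIP2-10 had 501 and 306 at 24 h and 46 and 89.2 at 12 h (2.61). PIP2-6 rose by 2.97 (225 and 348 at 24 h, 76.4 and 16.8 at 12 h), but by 1.87 without the second 12 h array. NIP1-8, of the nodulin-26-like branch, fell by 1.15, with 81.5 and 83.8 at 24 h and 167 and 200 at 12 h. Summed over the list the intensities were 57100 and 56100 on the 0 h arrays, 33900 and 37500 on those of 12 h, and 63200 and 57600 on those of 24 h. Among ion transporters, 7 Na, K and proton transport probe sets known by symbol had 1 fall. Their median was -0.16, or 0.03 without the first 12 h array. Of 41 such probe sets that the study described, 6 rose and 14 fell (median -0.24). Those descriptions were given to probe sets that changed on these same arrays, so the count is not independent evidence of a direction. The 6 include a plasma membrane H+-ATPase similar to one of white lupin, a proton pump, with 390 and 323 at 24 h and 119 and 143 at 12 h (1.44). One similar to that of Sesbania rose by 1.14.

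Single enzymes of organic acid metabolism changed in both directions. PPCK1, the kinase that activates phosphoenolpyruvate carboxylase and so the supply of malate, was at 477 and 363 at 24 h and at 28.3 and 34.9 at 12 h (3.73, SE 0.30, adjusted p = 7.03e-05). Both 24 h arrays were far above both 12 h arrays. ATP-citrate lyase, which splits citrate to make acetyl-CoA in the cytosol, fell in both of its subunits: the b subunit was at 107 and 100 at 24 h and at 507 and 422 at 12 h (-2.16), and subunit A-1 at 30.9 and 34.3 at 24 h and at 236 and 101 at 12 h (-2.24). Cytoplasmic aconitase, which isomerizes citrate, fell by 1.11 (126 and 118 at 24 h, 292 and 239 at 12 h). Of 21 tested probe sets with symbols of this group 6 rose and 1 fell, and 3 rose when the second 12 h array or either 24 h array was left out. Of 25 described by the study, which chose its descriptions from probe sets that changed on these arrays, 1 rose and 15 fell. Over all tested probe sets 12.1% rose and 19.8% fell.

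Phenylpropanoid and lignin probe sets differed in direction by how they were annotated. Over all tested probe sets 12.1% rose and 19.8% fell. Of 21 probe sets with symbols of the phenylpropanoid and lignin pathway 12 rose and 1 fell (median 0.64). CCR, cinnamoyl-CoA reductase, which opens the branch to lignin, rose by 1.20, at 879 and 959 at 24 h and 418 and 382 at 12 h. CYP98A2, the hydroxylase that makes caffeoyl units, rose by 1.09 (909 and 753 at 24 h, 438 and 345 at 12 h). In contrast, 10 of 28 probe sets that the study described in this pathway fell and the other 18 were not called (median -0.24). These descriptions were given to probe sets that changed on the same arrays, so the 10 falls are not independent evidence of a direction. One that fell is PAL1, at the entry to the pathway, with 20.4 and 19.1 at 24 h and 85.8 and 37 at 12 h (-1.51, or -0.90 without the first 12 h array).

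Of 49 flavonoid and isoflavonoid probe sets 1 rose and 15 fell, with a median of -0.36, but 6 fell without the first 12 h array and 3 without the first 24 h array, below the 19.8% of all tested probe sets. A difference between the lignin and the flavonoid branch was not tested. CHR5, a chalcone reductase of legume isoflavonoid synthesis, was at 574 and 844 at 24 h and at 1940 and 1500 at 12 h (-1.29, SE 0.30, adjusted p = 0.0172). A 6'-deoxychalcone synthase of the same step was at 387 and 598 at 24 h and 1630 and 1070 at 12 h (-1.46). CHS1, chalcone synthase, fell by 1.78 (37.8 and 71 at 24 h, 274 and 116 at 12 h). It was not called without the first 12 h array (-1.16, adjusted p = 0.2) or without the first 24 h array (-1.33, adjusted p = 0.185). The probe set that rose was IF7GT, a glucosyltransferase that attaches sugar to isoflavones, with 131 and 118 at 24 h and 31.6 and 40.8 at 12 h (1.79).

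Gibberellin-related genes fell more often than they rose, and more often than all tested probe sets (19.8% fell, 12.1% rose). Of 21 gibberellin probe sets 12 fell and 2 rose (median -0.62), with 1 rise left without the first 12 h or the second 24 h array. GASA14, a small cysteine-rich peptide of the gibberellin-stimulated family, had 152 and 189 at 24 h, against 767 and 800 at 12 h (-2.21, SE 0.18, adjusted p = 7.03e-05). GASA22 of the same family had 10 and 29.1 at 24 h and 94.6 and 226 at 12 h (-3.10), with its first 24 h array under background. GA20OX3, a 20-oxidase of gibberellin synthesis, rose by 2.00 (170 and 85.3 at 24 h, 36.3 and 25.1 at 12 h). The list summed to 1950 and 2360 on the 0 h arrays, 4460 and 4520 on those of 12 h, and 1670 and 1830 on those of 24 h.

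Of 31 probe sets with cell wall symbols 14 fell and 17 were not called, with a median of -0.46. The number that fell was 8 without the first 12 h array and 7 without the first 24 h array, nearer to the 19.8% of all tested probe sets. A xyloglucan endotransglycosylase, which cuts and rejoins wall polymers, fell to 138 and 130 at 24 h, against 966 and 1070 at 12 h (-2.93, SE 0.19, adjusted p = 1.89e-05). EXP1, an expansin, a protein that loosens walls, was at 88.9 and 64.5 at 24 h and at 415 and 342 at 12 h (-2.32, SE 0.24, adjusted p = 0.000265). A nucleotide sugar epimerase, which supplies wall sugars, fell by 2.07 (23.9 and 26 at 24 h, 136 and 80.3 at 12 h). Of 3 enzymes of pectin named here 2 rose, a pectin methylesterase at 318 and 301 at 24 h and 84.3 and 119 at 12 h (1.63) and a polygalacturonase at 1050 and 1110 at 24 h and 538 and 462 at 12 h (1.11), while a pectinesterase was not called (0.23). ACAULIS5, a polyamine synthase of xylem development in Arabidopsis, fell by 2.04, with 77 and 59.1 at 24 h, against 259 and 297 at 12 h. A cyclin d2 of the cell cycle fell by 1.50 (16.1 and 10.4 at 24 h, 38.7 and 34.8 at 12 h). Of 5 probe sets for dividing cells 3 fell, and 1 or 2 fell when 1 of the 4 arrays was left out.

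Some genes named here for their falls are known from low oxygen or reactive oxygen, and a common direction of such genes was not tested. No list of them was counted except antioxidant and glyoxalase genes. Of these 5 of 37 rose, near the 12.1% of all tested probe sets, and 32 were not called. A hypoxia induced protein had 18.9 and 18.2 at 24 h, against 295 and 196 at 12 h (-3.70, SE 0.46, adjusted p = 0.000867). A nonsymbiotic hemoglobin, an oxygen-binding protein of roots, fell by 1.21 (1110 and 844 at 24 h, 1980 and 2520 at 12 h). A member of the zinc-containing alcohol dehydrogenase family fell by 1.96 (19.4 and 20.7 at 24 h, 64.3 and 94.5 at 12 h). Its description does not tie it to low oxygen. RBOHB, an oxidase that makes superoxide, had 36.1 and 35.1 at 24 h, against 130 and 90.3 at 12 h (-1.60). A haem peroxidase was at 14.9 and 54.7 at 24 h and at 131 and 190 at 12 h (-2.47, or -1.53 without the first 24 h array). Among the other large falls was a sulfotransferase, at 9.76 and 18.1 at 24 h and 92.3 and 120 at 12 h (-2.98).

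Heat shock proteins are chaperones of protein folding. Of 54 tested probe sets 20 rose (12.1% of all tested did) and 12 fell (19.8% of all did, much the same share), with a median of 0.07, and 7 fell without the second 24 h array. HSP23.9, a small heat shock protein, had 245 and 241 at 24 h and 9.19 and 23.2 at 12 h (4.06, SE 0.47, adjusted p = 0.000567). A class II protein of 17.9 kDa had 418 and 401 at 24 h and 73.6 and 77.7 at 12 h (2.44). HSP70B, a larger chaperone, fell by 1.40 (36.9 and 29.9 at 24 h, 86.8 and 88 at 12 h). HSF-14, a heat stress factor, fell by 1.36 (12.4 and 15.4 at 24 h, 28.8 and 43.7 at 12 h), with 1 of its 24 h arrays under background.

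Signalling genes that the study had described fell more often than they rose: 73 of 180 protein kinases fell and 22 rose, and 23 of 43 calcium signalling probe sets fell and 2 rose. The study took these descriptions from probe sets that changed over the same arrays, so the counts are not independent evidence of a direction. In the lists made from symbols, 7 of 47 kinases fell and 6 rose, and 3 of 24 calcium genes fell, and both shares of falls lie below the 19.8% of all tested probe sets. Of these kinases 3 rose without the second 12 h array and 1 without the second 24 h array. CRK10, a cysteine-rich receptor kinase, had 22.8 and 34.1 at 24 h and 91.9 and 112 at 12 h (-1.86). CML41, a calmodulin-like calcium sensor, had 34.1 and 23.1 at 24 h and 77.6 and 101 at 12 h (-1.66).

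Metabolic genes outside these groups moved singly. GOLS, galactinol synthase, the first enzyme of the raffinose sugars, rose by 2.26 (283 and 286 at 24 h, 40.4 and 87.2 at 12 h), and a trehalose-6-phosphate phosphatase rose by 2.13 (165 and 177 at 24 h, 35.4 and 43.3 at 12 h). A purple acid phosphatase, which frees phosphate from organic compounds, was at 164 and 133 at 24 h and at 21.2 and 37.8 at 12 h (2.38, SE 0.43, adjusted p = 0.00597). SFERH-3, a ferritin that stores iron, was at 299 and 349 at 24 h and 34.4 and 70.2 at 12 h (2.72). Over all tested probe sets 12.1% rose and 19.8% fell. Of 27 phosphate and iron probe sets 6 rose and 2 fell, and 5 fell without the first 12 h array. Of 28 nitrogen assimilation probe sets 9 fell and 19 were not called, and 3 fell without the second 24 h array. The glutamine synthetases GS1alpha (64.7 and 79.2 at 24 h, 129 and 148 at 12 h) and GS-2 (258 and 179 at 24 h, 413 and 461 at 12 h) fell by 0.95 and 1.02, the second not called without the second 24 h array (-0.76, adjusted p = 0.201).

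Fatty acid desaturases, which set double bonds into membrane lipids, fell in 5 of 11 probe sets and rose in 3 (19.8% and 12.1% of all tested). Without the second 24 h array 2 fell and 1 rose. SACPD-C, a stearoyl carrier protein desaturase, was at 106 and 60.4 at 24 h and at 540 and 736 at 12 h (-2.98, SE 0.79, adjusted p = 0.0307), and was not called without the second 24 h array (-2.57, adjusted p = 0.165). FAD6.1, a plastid desaturase, rose by 1.67 (152 and 127 at 24 h, 44.4 and 42.9 at 12 h). A protein with a cyclase/dehydrase domain was at 186 and 194 at 24 h and under background on both 12 h arrays (12.6 and 13), at least 11.9-fold higher. A protein like the regulator of chromosome condensation rose by 3.91 (310 and 309 at 24 h, 14.9 and 28.3 at 12 h).

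The study sorted 1591 of the tested probe sets that changed over its time course into functional categories. Of these 491 rose and 527 fell between 12 and 24 h, whereas 12.1% of all tested probe sets rose and 19.8% fell. In Energy 63 of 98 rose and 23 fell (median 1.24), and in Transcription 76 of 184 rose and 38 fell. Falls were the more frequent calls in Cell Structure (33 of 65, with 12 rises), Signal Transduction (70 of 169, with 36 rises), Metabolism (121 of 309, with 68 rises), Disease and Defense (34 of 82, with 12 rises) and Secondary Metabolism (19 of 58, with 6 rises). In Secondary Metabolism the share of falls was near that of all 1591. The categories hold only probe sets chosen for changing on these arrays, and no test was made on them.

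In all, 16 probe sets stand for genes that were also chosen for QRT-PCR, and 9 of them were called. BZIP77, a bZIP factor, had 341 and 275 at 24 h and 115 and 118 at 12 h (1.39, SE 0.15, adjusted p = 0.000405). A phosphoenolpyruvate carboxylase kinase had 320 and 339 at 24 h and 101 and 154 at 12 h (1.40), but was not called without the first 12 h array (1.09, adjusted p = 0.177) or the second 24 h array (1.36, adjusted p = 0.169). Beta-glucosidase, which releases sugars from glucosides, had 272 and 212 at 24 h and 582 and 538 at 12 h (-1.22), and an elicitor-inducible cytochrome P450 had 80 and 64.8 at 24 h and 179 and 119 at 12 h (-1.02). The primers of these 4 genes, 2 that rose and 2 that fell, are printed because they name the transcripts more exactly than a description does. They come from the study's supplementary table, and no genome was used to place them.
BZIP77 sense: actgagggttccagtgatgg
BZIP77 antisense: ggatttctcagctccagtgc
phosphoenolpyruvate carboxylase kinase sense: gaagtgggccttttaccaca
phosphoenolpyruvate carboxylase kinase antisense: tgcgaacattttagcaaacg
beta-glucosidase sense: tctgaaaatggcatggatga
beta-glucosidase antisense: caatgccaaaccttgatgtg
cytochrome P450 sense: cgcgctgagtaaaacatacg
cytochrome P450 antisense: ggaccaagtgatgtccgagt

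Of the other QRT-PCR genes, an HDZip I protein rose by 1.04 (408 and 391 at 24 h, 166 and 228 at 12 h) and an uncharacterized protein by 1.65 (163 and 157 at 24 h, 46.9 and 54.9 at 12 h). A calcium-dependent protein kinase fell by 0.61 (122 and 108 at 24 h, 172 and 179 at 12 h). A GRAS factor fell by 0.89 (44.3 and 33.8 at 24 h, 87.1 and 58.6 at 12 h), a call lost without the second 24 h array (-0.69, adjusted p = 0.159). A gene related to cell wall loosening fell by 0.48 (82.7 and 100 at 24 h, 133 and 121 at 12 h) and was not called without the first 12 h array (-0.42) or the first 24 h array (-0.34). The 7 that were not called differed by -0.58 for an NADP-dependent malic enzyme, -0.52 for a WRKY factor, -0.25 for a ZIM protein, -0.10 for a HEX factor, 0.23 for a pectinesterase, 0.36 for a NAM-like factor and 0.73 for a glucosyltransferase. The WRKY factor was called without the first 24 h array, and the glucosyltransferase without that array or the second 12 h array. The 24 h and the 12 h arrays overlapped in the HEX factor, the pectinesterase and the glucosyltransferase.

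Whether the changes in this interval were a late reversal of earlier ones was checked against the levels before stress. Against 0 h, 12 h roots had 2271 probe sets higher (7.95% of those tested) and 4673 lower (16.4%), and 24 h roots had 1733 higher (6.07%) and 5595 lower (19.6%). Fewer probe sets were thus called higher than before stress at 24 h than at 12 h, and more were called lower. Over all tested probe sets, however, the median difference from 0 h was -0.04 for 12 h roots and -0.13 for 24 h roots. How far this shift of the whole set enters the counts was not tested. The probe sets called higher between 12 and 24 h had a median of -0.64 at 12 h minus 0 h and of 0.33 at 24 h minus 0 h. Those called lower had medians of 0.28 at 12 h and -0.49 at 24 h against 0 h. The median of each set was thus on one side of the unstressed level at 12 h and on the other side at 24 h. These medians rest on the same 12 h and 24 h arrays that chose the sets.

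The 6 h arrays did not enter the 24 h minus 12 h difference, which set the direction of a call. They entered only the filter of tested probe sets and the shared estimate of spread. At 6 h, 76.2% of the probe sets that later rose between 12 and 24 h lay below 0 h (54.6% of all tested did), and 57.5% of those that later fell lay above it (45.4% of all tested did).

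Because a change up to 12 h and a change after it share the 12 h arrays, an error on those arrays moves the 2 in opposite directions. The intervals were therefore compared with 1 of the 12 h arrays used for the first interval and the other for the second. This was planned for changes from 6 to 12 h, and was repeated for changes from 0 to 12 h after the data had been seen. Using the second 12 h array against 0 h, 2345 probe sets were called higher (8.21%) and 4446 lower (15.6%), and 74.5% of the higher ones moved down from the first 12 h array to 24 h (54.6% of all tested did). Of the lower ones 55.3% moved up (45.4% of all did). With the arrays exchanged, 1543 were called higher (5.4%) and 4344 lower (15.2%), of which 80.1% moved down (60.1% of all) and 61.1% moved up (39.9% of all). Movement back toward 0 h was thus more frequent than in all tested probe sets in each of the 4 cases. It was counted by direction alone, also where it passed 0 h. With a common start of treatment, the 24 h and 0 h roots were taken at the same hour of day. The 12 h roots were not. Duration of stress and time of day therefore cannot be told apart here either. An error common to both 12 h arrays, which the authors fitted to each other, stays in both intervals. The comparison concerns probe sets that had already changed by 12 h and says nothing of those that had not.

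Against 6 h the same check did not give one picture. With the second 12 h array used first, 4852 were called higher than at 6 h (17.0%) and 5366 lower (18.8%), and 54.2% and 41.1% moved back, against 54.6% and 45.4% of all tested. With the first 12 h array used first, 2089 were higher (7.31%) and 4058 lower (14.2%), and 76.4% and 47.3% moved back, against 60.1% and 39.9% of all. A reversal of what happened between 6 and 12 h was therefore seen with 1 choice of array and not with the other.

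Single genes followed several courses. On the log2 scale and against 0 h, the first LHY probe set lay at -3.52 at 12 h and at 0.45 at 24 h, and CAB3 at -6.06 at 12 h and at 0.63 at 24 h. LUXC (2.16 at 12 h, -0.48 at 24 h), EXP1 (1.76, -0.56), GASA14 (2.41, 0.20) and the xyloglucan endotransglycosylase (3.45, 0.52) came down from above the unstressed level. At 24 h they lay nearer to it, on one side or the other. The hypoxia induced protein was at 1.82 at 12 h and at -1.88 at 24 h, on the other side of the unstressed level. PPCK1 ended 1.23 above 0 h, and ferredoxin I 2.39 above it.

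**Figure D4:**
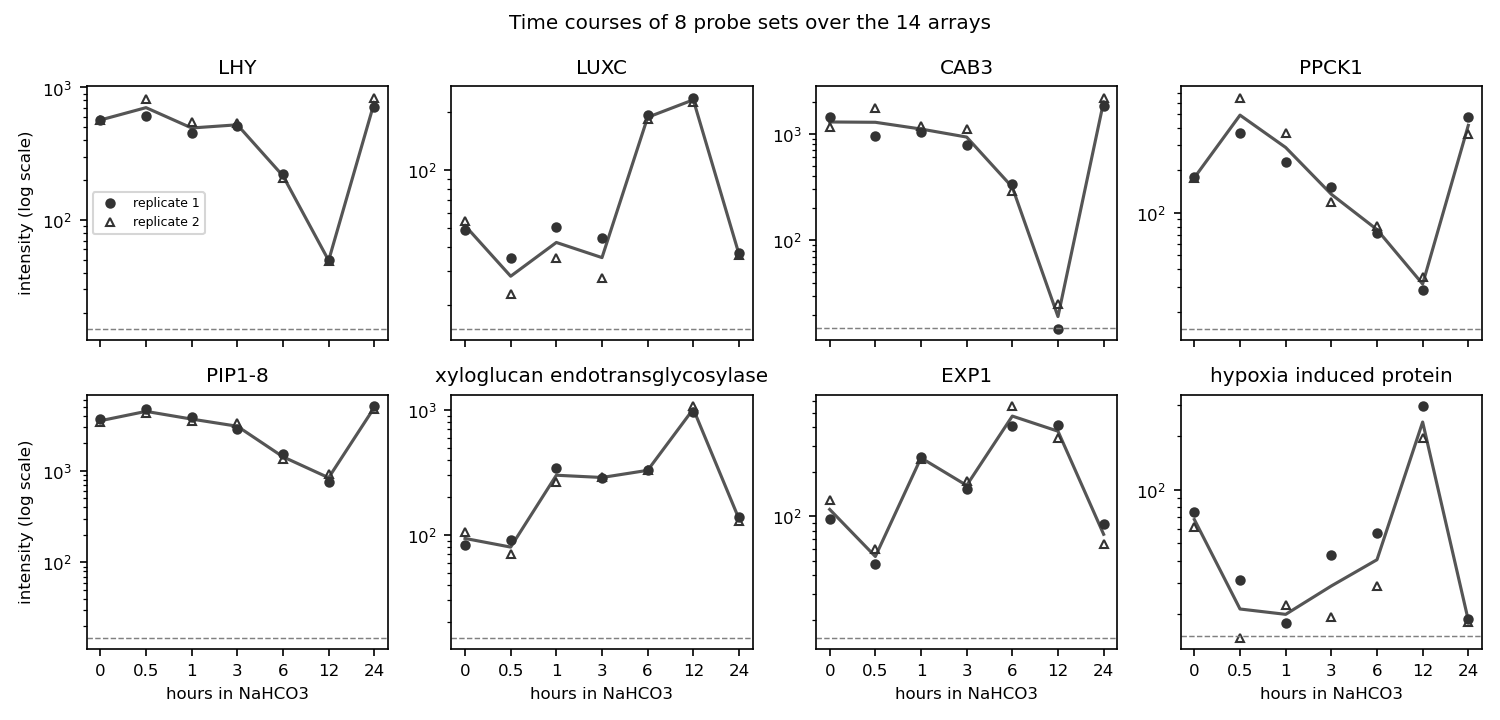
Deposited intensity (log scale) of 8 probe sets over the 7 time points from 0 to 24 h of NaHCO3, with filled circles for replicate 1, open triangles for replicate 2, a line through the means of the log2 values and the background level of 15.1 as a dashed line. LHY, CAB3, PPCK1 and PIP1-8 have their lowest point at 12 h, LUXC, the xyloglucan endotransglycosylase and the hypoxia induced protein have their highest point there, and EXP1 is high at both 6 and 12 h.

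The courses of 2 further probe sets were different. The purple acid phosphatase did not differ from 0 h at 12 h beyond its error (-0.04, adjusted p = 0.965) and was 2.34 above it at 24 h (adjusted p = 0.00668). Its means per time point stayed between 14 and 47.6 through the first 6 time points and reached 148 at 24 h. An aspartic peptidase, at 17.1 and 20.1 at 24 h and 34.8 and 28.5 at 12 h (-0.76, adjusted p = 0.105), was already at -3.05 against 0 h at 12 h and was at -3.81 at 24 h. That further fall was not called without either 24 h array (-0.64 and -0.88) or without the first 12 h array (-0.62).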

How the data were processed

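The authors deposited 1 table of linear intensities for 14 Affymetrix Soybean Genome arrays. They computed these in dChip with perfect-match probes, having first scaled 1 array per time point to the median of all and then adjusted its partner to it with an invariant set. No columns of comparisons were used. Here intensities under 1 were raised to 1, which touched 0 values on the 4 arrays compared, and log2 was taken without further normalization. A soybean probe set was tested where the average of its log2 values was over the 95th percentile of the pathogen probe sets (28726 passed) and its replicates had an SD of under 0.5 of their mean in the median time point, which removed 160.

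The differences come from a single model of the 7 groups without covariates (limma 3.58.1, R 4.3.3), with 7 residual and 3.24 prior degrees of freedom and a median SE of 0.237. A call needed p under 0.05 before and under 0.15 after Benjamini-Hochberg adjustment, limits taken from the study's methods. The 2 arrays of a time point are separate pools of 3 plants. A p-value rests on the spread between such pools, estimated over all 7 time points and not at 12 and 24 h alone. The median SD of replicates was 0.222 at 12 h and 0.177 at 24 h, and 0.11 to 0.187 at the other time points. Technical differences between time points stand outside this spread. Replicate numbers did not pair the samples: the deviations of the 12 h and the 24 h arrays correlated at -0.0426, and over 21 pairs of time points at -0.349 to 0.295. On simulated data of the 24 h and 12 h comparison over 28566 probe sets, 42 of 100 changed by 1 and 95 of 100 changed by 2 were called. Of 28366 unchanged probe sets 23 were called. Far fewer probe sets were changed in the simulation than were called here (3446 higher and 5654 lower). The adjusted limit was therefore stricter there, and these rates do not describe the comparison of the real arrays.

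Genes are named by symbol from the array annotation (1363 of the tested probe sets) or by a description that the study gave (3267 have one or the other), both possibly outdated. Lists of genes were matched by symbol and, separately, by description. Named genes are taken from the 12 largest described changes each way, up to 3 called members of each list in each direction, clock genes, the QRT-PCR genes, the 5 largest opposite changes around 12 h each way and up to 5 each way whose 24 h level lies furthest beyond 0 h. The largest changes, the opposite changes and those furthest beyond 0 h were taken only from called probe sets whose 24 h and 12 h arrays did not overlap. The comparison and the lists were chosen with earlier results of these data known, and the word patterns of some lists were corrected on gene identity after inspection of the members. Probe sets ending in _s_at or _x_at can bind transcripts of several similar genes. Alternatives were quantile normalization, median centring, a floor and a pseudocount of 16, other filters, limma on the 4 arrays, an intensity trend, the methods' t-test, stricter limits, a replicate block, and each array left out. QRT-PCR values were not analysed here, and promoter motifs were not searched. Tables were made in Python 3.11.15 (pandas 2.3.3, numpy 2.4.6) and plots with matplotlib 3.10.9.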

Additional observations from a re-analysis of the deposited data

Results flagged for a closer look

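The chip also carries 23350 probe sets for Phytophthora sojae (an oomycete) and Heterodera glycines (a nematode), pathogens of soybean, which no comparison above used. Of these, 191 lay above the background level on both 24 h arrays and more than 2-fold above both 12 h arrays, whereas 8 lay above background at 12 h and more than 2-fold above both 24 h arrays. Among the 191 there were 140 for Phytophthora sojae (of 15820) and 51 for Heterodera glycines (of 7530), and 166 also lay above both 0 h arrays. Their median intensities were 9.95 and 10.7 on the 0 h arrays, 6.96 and 7.08 on the 12 h arrays, and 20.3 and 22.5 on the 24 h arrays. The gap between 12 h and 24 h follows from how the 191 were chosen. Over all probe sets on the chip, median intensities were 16.3 and 17.4 at 24 h and 15.5 and 13.8 at 12 h. The 0 h arrays had 16.3 and 16. The share of all pathogen probe sets above background was 10.2% and 7.74% on the 0 h arrays, 9.36% and 3.46% on those of 12 h, and 12.7% and 17.6% on those of 24 h. The background level of 15.1 was itself set from these probe sets, and whether they bound soybean or other transcripts was not tested.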

How the results depend on the processing

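The 3446 probe sets higher and 5654 lower at 24 h became 1586 and 1801 with limma on the 4 arrays alone, 1885 and 2692 at an adjusted p under 0.05, and 1567 and 1614 with a difference of over 1 on the log2 scale. The methods' t-test called 0 and 0 after Benjamini-Hochberg adjustment (1722 and 2358 at an unadjusted p under 0.05). Leaving out 1 of the 14 arrays gave 1815 to 3697 higher and 2880 to 5744 lower, the fewest without the second 24 h array. With the replicate block 3468 and 5596 were called, and it changed no call among the named probe sets. The share of falls among the calls was 59.8% after quantile normalization and 54.4% after centring. Where both intervals shared the 12 h arrays, 75.9% of the rises and 53.5% of the falls from 6 to 12 h moved back, against 54.2% or 76.4% and 41.1% or 47.3% with separate 12 h arrays. For changes from 0 to 12 h, chosen after seeing the data, the shared arrays gave 92.7% and 70.1%, and separate arrays 74.5% or 80.1% and 55.3% or 61.1%. Of 100 probe sets named in the text 92 were called, 79 of these under every alternative but the t-test and the difference limit, and 0 turned direction. Of 35 list medians 14 changed sign in some alternative, none of them over 0.28 in size. The number of arrays, 2 per time, limits the precision of all values, and levels under background are bounds.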
